A study of Mus musculus with 15 samples.

Results

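The complement genes described here are C1qa, C1qb, C1qc, C2, C4b, C3, Cfb, Cfp and C3ar1, 9 of the 38924 genes in the deposited RNA-seq tables, each taken by its exact name and kept whatever its level. All 9 passed the filter on low counts (at least 1 cpm, a count scaled to the size of the library, in at least 2 libraries), which left 14967 genes. CD11b+CD45hi and CD11b+CD45lo myeloid cells were sorted by FACS from brains of male wild type C57BL/6J mice at 12 months of age, fed either Chow or, from 2 months of age, a western diet (WD). The sort kept CD3e- cells of brain tissue without olfactory bulb and cerebellum. There were 4 libraries of Chow CD45hi cells, 4 of Chow CD45lo, 3 of WD CD45hi and 4 of WD CD45lo. CD45lo is the gate used for resident microglia, whereas CD45hi is a gate on surface protein that can hold several myeloid cell types. In bulk RNA of this kind, fewer cells of a type and less RNA per cell cannot be told apart.

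Complement is a cascade of secreted proteins that tags debris, microbes and, in the brain, synapses. C1q, a hexamer built from the A, B and C chains encoded by C1qa, C1qb and C1qc, starts the classical route, in which the cleaved products of C4 and C2 form the enzyme that splits C3. Factor B (Cfb) forms the corresponding enzyme of the alternative route, and properdin (Cfp) stabilizes it. C3ar1 encodes the receptor for the C3a fragment. In the brain, microglia are known as the main source of C1q.

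Totals ran from 11951412 to 17912272 estimated counts per library. Ptprc, which encodes CD45, was at 925 ± 180 cpm (SD, n = 4) in Chow CD45hi against 417 ± 32.1 (n = 4) in Chow CD45lo, and at 1244 ± 78.1 (n = 3) in WD CD45hi against 423 ± 56.3 (n = 4) in WD CD45lo. The summed level of 8 microglial markers was 4080 to 4985 cpm in the CD45hi libraries and 9367 to 11918 cpm in the CD45lo libraries. Summed markers of other myeloid cells were higher in CD45hi: 8 border-associated macrophage markers summed to 834 to 2888 cpm against 68.6 to 255, 8 monocyte markers to 402 to 956 against 43.3 to 146, 8 neutrophil markers to 1409 to 3544 against 577 to 855, and 6 dendritic cell markers to 122 to 297 against 18.8 to 35.7. The 1.5-fold test given below called 8 of 8 border-associated macrophage and 6 of 8 neutrophil markers higher in CD45hi on each diet. It called 5 and 4 of 8 monocyte markers on Chow and the WD, and 1 of 6 dendritic cell markers on each. Most of the dendritic cell sum in CD45hi was Cd209a, with means of 155 cpm on Chow and 139 on the WD. Csf3r, the largest part of the neutrophil sum in CD45lo, had means of 730 against 551 cpm on Chow and 649 against 684 on the WD. None of the microglial, border-associated macrophage or monocyte markers was at 3 counts or fewer throughout any group, as was 1 dendritic cell marker in each CD45lo group and 1 neutrophil marker in WD CD45lo. Over all libraries the markers of astrocytes summed to 45.4 to 244 cpm, of oligodendrocytes to 60.8 to 224, of endothelium and pericytes to 7.47 to 48.7, of lymphocytes to 3.41 to 46.4 and of neurons to 0.134 to 27.4. The 3 liver markers were at 0 in all 7 CD45hi libraries and summed to at most 2.85 cpm in CD45lo.

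C4b and Cfp were higher in CD45hi cells on both diets, C2 on Chow and C3 on the WD, by 6.49-fold to 17.9-fold. The C1q chains and C3ar1 did not pass the test in either diet, and Cfb was at 3.06 cpm or less in all but 1 library. The test was edgeR's quasi-likelihood test against a change of 1.5-fold, with the Benjamini-Hochberg false discovery rate (FDR) taken over all 14967 genes and called under 0.05. It called 3 of 9 genes on Chow (C2, C4b and Cfp), all higher in CD45hi, where 3.98% of all genes tested were called in either direction and 3.39% as higher in CD45hi. It called 3 of 9 on the WD (C3, C4b and Cfp), again all higher in CD45hi, beside 5.18% of all genes in either direction and 4.01% as higher. Against any change at all, with no 1.5-fold margin, edgeR called C2, C3, C4b and Cfp on Chow (8.03% of all genes) and C1qa, C3, C4b and Cfp on the WD (9.12%). The median log2 fold change over the 9 genes was 0.11 on Chow and 2.47 on the WD, beside 0.04 and 0.00 over all genes tested. The WD median was the value of Cfb, and it was 0.86 without WD CD45hi replicate 3.

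**Figure D1:**
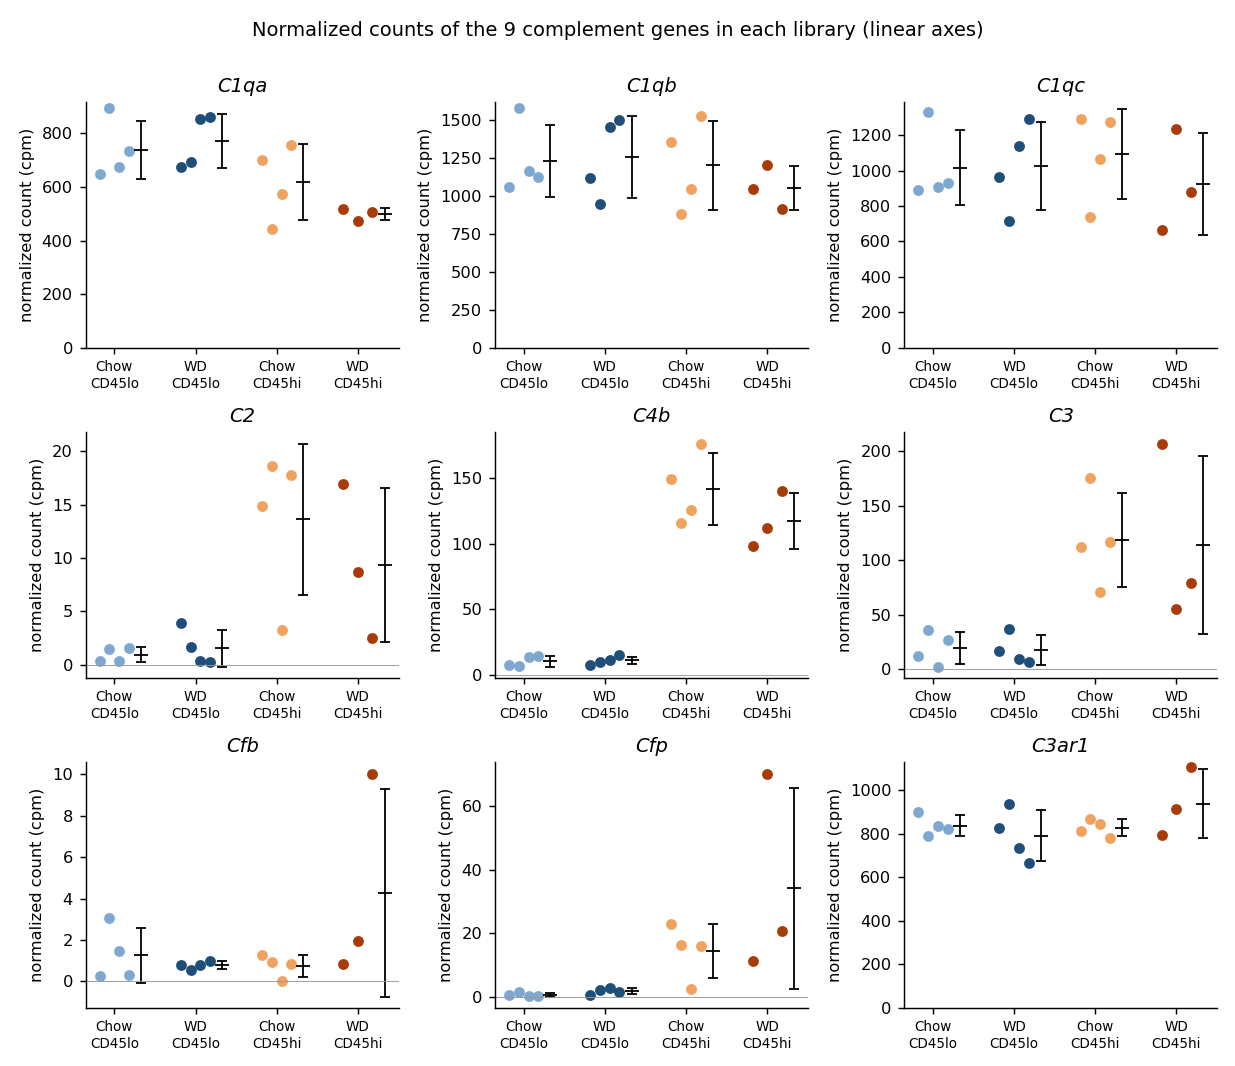
Normalized counts (cpm, linear axes) of the 9 genes, with 1 dot per library and, to its right, the mean and SD of each group. C1qb, C1qc and C3ar1 overlapped between the gates on both diets, while C4b stood at 98.5 cpm or more in every CD45hi library and at 14.8 cpm or less in every CD45lo library.

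C1qa, C1qb and C1qc lie side by side on the minus strand of chromosome 4 (mm10), C1qb at chr4:136880129-136886187, C1qc at chr4:136889804-136893065 and C1qa at chr4:136895917-136898803. C1qa was at 700, 442, 574 and 757 cpm in the 4 Chow CD45hi libraries and at 650, 893, 674 and 734 cpm in the 4 Chow CD45lo libraries. These ranges overlapped, and the log2 fold change of CD45hi over CD45lo was -0.25 ± 0.16 (SE; FDR = 1, edgeR). In WD libraries, C1qa was at 518, 472 and 506 cpm in CD45hi and at 675, 694, 855 and 859 cpm in CD45lo. Here every CD45hi library lay below every CD45lo library, a pattern that 13.4% of all genes tested showed on the WD and 8.22% on Chow. The log2 fold change was -0.63 ± 0.18 (SE; 95% interval -0.999 to -0.26), which passed edgeR's test of any change (FDR = 0.0305) but not the 1.5-fold test (FDR = 0.553). With 1.5-fold as a filter on the test of any change, C1qa was called lower in CD45hi on the WD. The difference between the diets was not called (interaction log2 -0.37, 95% interval -0.87 to 0.13, FDR = 0.64, edgeR).

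C1qb, the chain with the highest level per length, was at 881 to 1521 cpm in Chow CD45hi, 1054 to 1578 in Chow CD45lo, 909 to 1201 in WD CD45hi and 942 to 1499 in WD CD45lo. The 4 ranges overlapped throughout. Its log2 fold change was -0.04 ± 0.19 on Chow and -0.25 ± 0.20 on the WD (SE; FDR = 1 and 0.975, edgeR), and leaving out single libraries moved the Chow value between -0.17 and 0.09. C1qc was at 741 to 1289 cpm in Chow CD45hi, 892 to 1333 in Chow CD45lo, 662 to 1235 in WD CD45hi and 713 to 1293 in WD CD45lo, with log2 fold changes of 0.11 ± 0.22 and -0.15 ± 0.24 (FDR = 1 and 0.993). The sign turned under other settings: with libraries scaled by total counts alone the Chow value of C1qc was -0.14, and without WD CD45hi replicate 1 its WD value was 0.043. Its 95% interval lay within 1.5-fold on Chow (-0.36 to 0.57) and reached past it on the lower side on the WD (-0.66 to 0.36). For comparison, all 8 microglial markers were called lower in CD45hi on Chow and 6 of 8 on the WD, with median log2 fold changes of -1.24 and -1.17.

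The ratio of the chains within a library does not depend on how libraries were scaled to each other. On the TPM scale, which corrects for transcript length and the size of the library, C1qc was 1.41 to 1.57 times C1qa in the 4 Chow CD45hi libraries and 1.07 to 1.26 times in the 4 Chow CD45lo libraries. On the WD the ratio was 1.08 to 2.21 in CD45hi and 0.868 to 1.27 in CD45lo. The ranges were apart on Chow and overlapped on the WD, where replicate 1 of CD45hi held the lowest ratio of its group and replicate 2 the highest. C1qb was 1.72 to 1.91 times C1qa in Chow CD45hi against 1.45 to 1.67 in Chow CD45lo, and 1.70 to 2.41 times in WD CD45hi against 1.29 to 1.65 in WD CD45lo. Ratios of C1qb to C1qc lay between 1.09 and 1.77 over the 15 libraries. How often the ratio of other gene pairs is apart between the gates was not examined, and the ratios were not tested.

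The bases before the start sites of C1qb and C1qc are shown because these chains did not pass the test between the gates, beside those of C3 and Cfp, which did on at least 1 diet. RefSeq promoter sequences (GRCm38.p6) were on hand for 5 of the 9 genes, namely C1qb, C1qc, C3, Cfp and C3ar1. Capitals mark 3 motifs searched on both strands of the 250 bases before the start: AGGAAGT, of the ETS type that PU.1 binds, TTGCNNAA, of the C/EBP type, and TATAAA. C1qb lies at chr4:136886201-136886450 and C1qc at chr4:136892915-136893164, both written 5′ to 3′ on the minus strand.
C1qb: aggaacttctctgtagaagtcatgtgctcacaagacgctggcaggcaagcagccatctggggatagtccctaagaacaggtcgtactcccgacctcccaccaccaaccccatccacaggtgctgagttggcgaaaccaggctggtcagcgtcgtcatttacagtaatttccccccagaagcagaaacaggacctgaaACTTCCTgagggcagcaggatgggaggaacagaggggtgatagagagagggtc
C1qc: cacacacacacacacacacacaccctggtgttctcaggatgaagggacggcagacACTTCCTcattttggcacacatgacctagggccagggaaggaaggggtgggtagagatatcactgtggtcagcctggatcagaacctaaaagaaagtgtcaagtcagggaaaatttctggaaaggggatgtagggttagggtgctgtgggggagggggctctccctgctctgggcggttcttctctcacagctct

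In both, the capitals are AGGAAGT read on the other strand, from base -53 to -47 before the start of C1qb and from -195 to -189 before that of C1qc. Of 32817 promoters of this length, 7.69% held AGGAAGT, 9.57% held TTGCNNAA and 12.4% held TATAAA. Neither of the other motifs was in these windows. C3ar1 held only TATAAA, from base -235 to -230. Positions count from the RefSeq start, which for C1qc (base 136892914) lies inside the annotated gene, so that 151 of its 250 bases fall within the gene's span given above. Such matches describe the letters and not binding.

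C4b, which encodes the C4 that C1s cleaves, showed the most even difference between the gates. It was at 150, 115, 125 and 176 cpm in Chow CD45hi against 7.35, 6.54, 13.5 and 14.4 cpm in Chow CD45lo. WD libraries had 98.5, 112 and 141 cpm in CD45hi against 7.93, 10.2, 11.1 and 14.8 cpm in CD45lo. All 7 CD45hi libraries thus lay above all 8 CD45lo libraries. C4b was 13.6-fold higher in CD45hi on Chow (log2 3.76 ± 0.32, SE; FDR = 1.9e-06) and 10.6-fold higher on the WD (3.41 ± 0.32; FDR = 8.8e-06, edgeR), and it was called in each of 26 alternatives on either diet. Every CD45hi library lay above every CD45lo library for C2, C4b, C3 and Cfp on Chow, as for 8.26% of all genes tested, and for C4b, C3 and Cfp on the WD, as for 10% (1501 genes).

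C4b lies at chr17:34728380-34743882, near its copy C4a at chr17:34809092-34823464. Estimated counts of C4b were fractional in 8 of 15 libraries, since RSEM divides reads that match both copies. C4a took at most 23.8 counts in a library, and with its counts added to C4b the log2 fold changes were 3.75 and 3.41. Astrocytes also make C4: the 5 astrocyte markers summed to 45.4 to 87.2 cpm in Chow CD45hi against 62.0 to 123 in Chow CD45lo, and to 57.5 to 244 cpm in WD CD45hi against 49.96 to 104 in WD CD45lo. Their part in the C4b levels was not tested.

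C2, the protease partner of C4, was low everywhere. It was at 14.9, 18.6, 3.25 and 17.8 cpm in Chow CD45hi against 0.353, 1.45, 0.307 and 1.59 cpm in Chow CD45lo. WD libraries had 16.9, 8.65 and 2.45 cpm in CD45hi against 3.87, 1.63, 0.329 and 0.227 cpm in CD45lo, and the highest CD45lo library exceeded the lowest CD45hi one. C2 was 14.6-fold higher in CD45hi on Chow (log2 3.87 ± 1.01, SE; FDR = 0.0456) and its value on the WD was 2.62 ± 0.997 (FDR = 0.187, edgeR), or 1.87 without WD CD45hi replicate 1 and 3.67 without WD CD45lo replicate 1. The diets did not differ beyond the spread (interaction log2 -1.25, 95% interval -4.24 to 1.75, FDR = 0.814). The Chow call rests on a thin margin: it was kept in 15 of 26 alternatives, with FDR from 0.00104 to 0.146, and was lost without Chow CD45hi replicate 1, 2 or 4, any 1 of the 4 Chow CD45lo libraries, or WD CD45lo replicate 2 (FDR = 0.0621 to 0.146), as well as with limma-voom, total counts alone and a looser filter.

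C2 (chr17:34862604-34898265) and Cfb (chr17:34856374-34862518) are neighbours on the minus strand, and the gene model Gm20547 (chr17:34856412-34882042) spans parts of both on the same strand. RSEM gave Gm20547 294 counts in Chow CD45hi replicate 4 and 0 counts in the other libraries, while C2 had 276 counts and Cfb 13.1 counts in replicate 4. With Gm20547 added to C2, the log2 fold change on Chow was 4.29 ± 1.05 (SE; FDR = 0.0282, edgeR). With Gm20547 added to Cfb, the Chow value turned from -0.75 to 2.11 ± 1.37 (FDR = 0.641). The annotation lets these genes share reads, so the C2 and Cfb values of that library are uncertain.

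C3, on which all routes converge, lies at chr17:57203970-57228136. It was at 112, 175, 71.1 and 116 cpm in Chow CD45hi against 12.4, 35.6, 2.34 and 26.6 cpm in Chow CD45lo. WD libraries had 207, 55.4 and 78.8 cpm in CD45hi against 16.9, 36.6, 9.61 and 6.97 cpm in CD45lo. The gates were apart on both diets, but libraries of the same group spread widely, from 2.34 to 35.6 cpm in Chow CD45lo. C3 was 6.49-fold higher in CD45hi on the WD (log2 2.70 ± 0.70, SE; FDR = 0.0456), and its Chow value was 2.62 ± 0.67 (FDR = 0.0513, edgeR), which just missed the threshold. The diets did not differ beyond the spread (interaction log2 0.08, 95% interval -1.98 to 2.13, FDR = 0.999). The WD call was kept in 11 of 25 alternatives and the Chow call was gained in 13 of 25, with FDR from 0.0117 to 0.188 and from 0.00208 to 0.155. Without WD CD45hi replicate 1, the library with the most C3, the WD value was 1.94 (FDR = 0.188), and without WD CD45lo replicate 2 it was 3.35. The WD call was also lost without Chow CD45hi replicate 1, 2 or 4, Chow CD45lo replicate 1 or 4, or WD CD45lo replicate 1, 3 or 4 (FDR = 0.0504 to 0.13). The same held with DESeq2 and limma-voom (FDR = 0.0834 and 0.0783). With edgeR it was lost with total counts alone (FDR = 0.082) and with the compared groups alone (FDR = 0.0599).

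The 250 bases before the C3 start (chr17:57228137-57228386) and the Cfp start (chrX:20931556-20931805) are printed for the contrast with the C1q chains, 5′ to 3′ on the minus strand with the same motifs in capitals.
C3: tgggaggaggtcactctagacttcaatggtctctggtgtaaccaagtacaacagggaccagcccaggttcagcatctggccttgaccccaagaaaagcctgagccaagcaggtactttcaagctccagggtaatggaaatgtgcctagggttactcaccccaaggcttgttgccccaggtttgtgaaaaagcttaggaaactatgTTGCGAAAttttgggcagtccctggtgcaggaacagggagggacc
Cfp: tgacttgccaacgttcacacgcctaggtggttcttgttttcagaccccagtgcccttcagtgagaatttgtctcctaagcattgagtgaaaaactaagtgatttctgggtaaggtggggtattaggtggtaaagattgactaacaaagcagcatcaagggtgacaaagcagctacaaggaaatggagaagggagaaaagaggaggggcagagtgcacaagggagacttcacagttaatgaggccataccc

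C3 held TTGCNNAA from base -45 to -38 and neither of the other motifs, and Cfp held none of the 3.

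Cfp (chrX:20925454-20931555) showed the steepest fitted difference of the 9 genes. It was at 22.8, 16.5, 2.55 and 15.9 cpm in Chow CD45hi against 0.765, 1.66, 0.246 and 0.511 cpm in Chow CD45lo. In WD libraries it was at 11.4, 70.1 and 20.9 cpm in CD45hi against 0.721, 2.15, 2.96 and 1.74 cpm in CD45lo. The gates were apart on both diets in cpm. In TPM they overlapped on Chow, at 2.41 in CD45hi replicate 3 against 2.62 in CD45lo replicate 2. Cfp was 17.9-fold higher in CD45hi on Chow (log2 4.16 ± 0.83, SE; FDR = 0.00748) and 17.9-fold higher on the WD (4.16 ± 0.85; FDR = 0.0078, edgeR). Without Chow CD45lo replicate 2 the Chow value was 4.78, and without WD CD45hi replicate 2, the library with the most Cfp, the WD value was 3.08 and missed the threshold (FDR = 0.0525). The Chow call was also lost with limma-voom (FDR = 0.0785).

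Cfb ran from 0 to 1.25 cpm in Chow CD45hi, 0.235 to 3.06 in Chow CD45lo, 0.847 to 10.04 in WD CD45hi and 0.519 to 0.985 in WD CD45lo. A single library, WD CD45hi replicate 3 with 131 counts, held the highest value, and 3 counts correspond to 0.156 to 0.282 cpm. The log2 fold changes were -0.75 ± 1.17 on Chow and 2.47 ± 1.27 on the WD (SE; FDR = 0.98 and 0.354, edgeR), and without that library the WD value was 0.86.

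**Figure D2:**
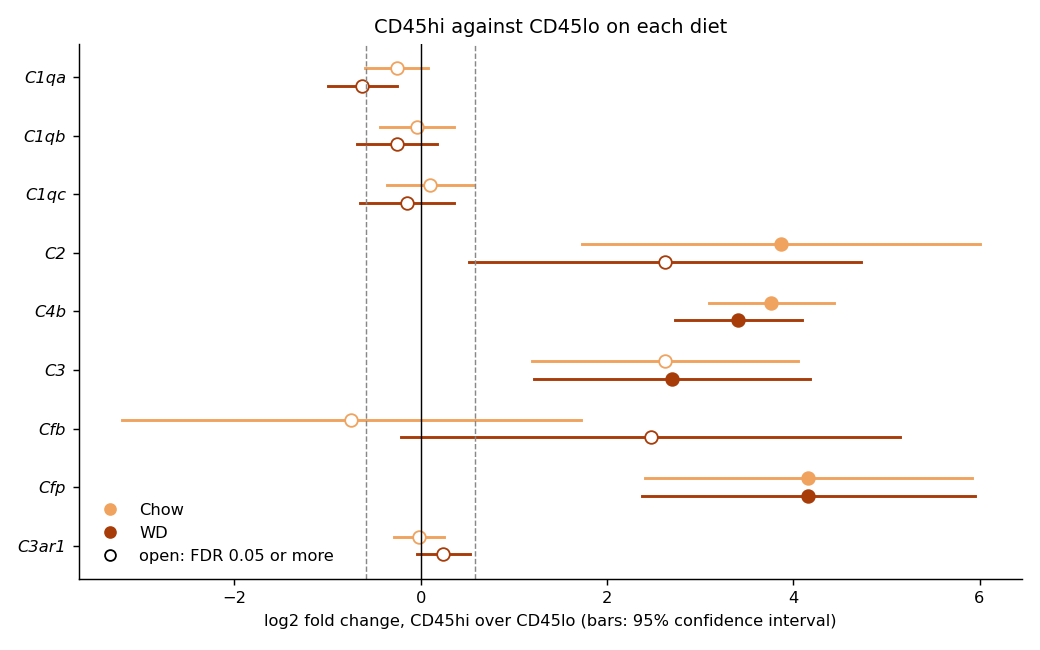
Log2 fold change of CD45hi over CD45lo for the 9 genes on Chow and on the WD, with 95% confidence intervals. Filled dots passed the 1.5-fold test (dashed lines mark 1.5-fold), and C4b had the narrowest interval of the genes that passed.

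C3ar1 (chr6:122847138-122856161) was at 814, 870.1, 844 and 779 cpm in Chow CD45hi and at 901, 791, 837 and 823 cpm in Chow CD45lo. In WD libraries it was at 793, 915 and 1106 cpm in CD45hi and at 827, 939, 734 and 666 cpm in CD45lo. The gates overlapped on both diets, with log2 fold changes of -0.02 ± 0.13 on Chow and 0.24 ± 0.14 on the WD (SE; FDR = 1 and 1, edgeR). The Chow interval of -0.29 to 0.25 and the WD interval of -0.04 to 0.53 both lie within 1.5-fold. The sign was not stable, at 0.01 on Chow with DESeq2 size factors and -0.07 on the WD with total counts alone.

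The CD45hi libraries differed among themselves, and markers of other cells differed beside the complement genes. Chow CD45hi replicate 3 had the lowest C2, C3 and Cfp of its group, with 402 cpm of summed monocyte markers and 1676 cpm of neutrophil markers against 663 to 956 and 2863 to 3544 cpm in the other Chow CD45hi libraries. WD CD45hi replicate 1 had the lowest C4b, C1qc and Cfp of its group and the highest C3 and C2, with 834 cpm of border-associated macrophage markers against 2888 cpm in replicate 2 and 2032 cpm in replicate 3. WD CD45hi replicate 2 had the most Cfp and C1qc and the most border-associated macrophage markers. The monocyte markers of the 3 WD CD45hi libraries were at 662, 843 and 606 cpm. C4b stayed within 98.5 to 176 cpm over the 7 libraries while C2 ran from 2.45 to 18.6, Cfp from 2.55 to 70.1 and C3 from 55.4 to 207 cpm. In TPM the spread of C4b was about as wide as that of C3, at 37.3 to 101 against 19.9 to 54.5. Chow CD45hi replicate 3 also held the lowest C4b of its group in TPM. The part of these cell types in the levels was not tested.

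**Figure D3:**
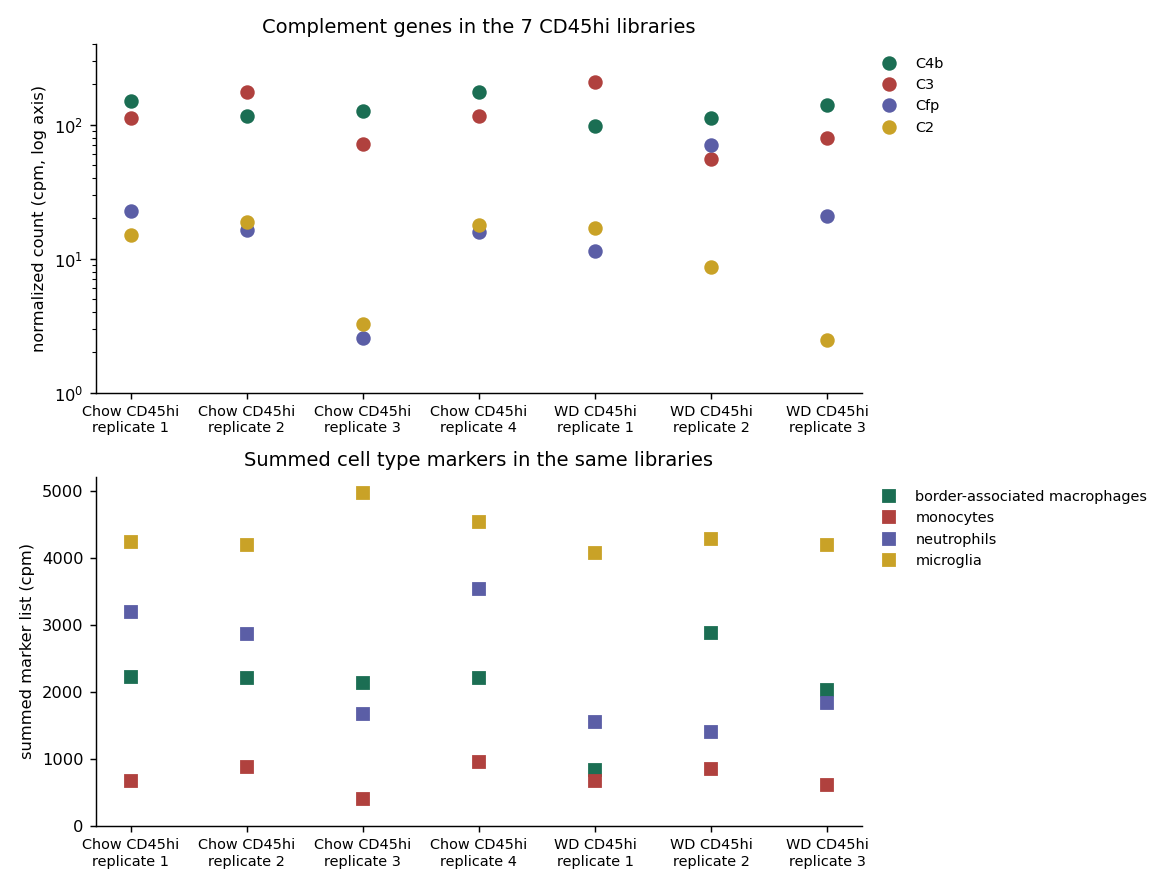
Upper panel, normalized counts (cpm, log axis) of C4b, C3, Cfp and C2 in each of the 7 CD45hi libraries. Lower panel, summed marker lists (cpm, linear axis) in the same libraries, where WD CD45hi replicate 1 stands low in border-associated macrophage markers (834 cpm) and Chow CD45hi replicate 3 low in monocyte markers (402 cpm).

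Levels can be compared between genes only per length, so TPM is used for the order. In Chow CD45lo, C1qb stood at 2518 ± 412 TPM, C1qc at 1854 ± 330, C1qa at 1597 ± 204 and C3ar1 at 383 ± 28.1 (SD, n = 4), places 20, 31, 40 and 285 among all genes of that group. C3 followed at 7.36 ± 5.56 TPM, C4b at 6.32 ± 3.70, Cfb at 2.22 ± 2.94, C2 at 1.24 ± 0.76 and Cfp at 1.15 ± 1.02. In Chow CD45hi the order was C1qb at 1767 ± 333 TPM, C1qc at 1438 ± 282, C1qa at 961 ± 169, C3ar1 at 276 ± 29.6, C4b at 75.8 ± 28.3, C3 at 36.0 ± 14.1, Cfp at 20.5 ± 16.6, C2 at 10.5 ± 6.59 and Cfb at 1.14 ± 1.06. C4b and C3 thus exchanged places between the gates.

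The first 4 places (C1qb, C1qc, C1qa, C3ar1) were held in this order in each of the 4 groups. C1qb was above C1qc in all 15 libraries, while their ranges overlapped within each group. C1qa and C3ar1 were apart in every group. Below C3ar1, neighbours in the order overlapped in every group except C2 and Cfb in Chow CD45hi. In WD CD45lo, C1qc was above C1qa in 3 of 4 libraries and C3 above C4b in 2 of 4. The 3 C1q chains summed to 252 to 632 times C2, C3 and C4b together in Chow CD45lo and 199 to 804 times in WD CD45lo. In CD45hi this ratio was 22.5 to 65.3 on Chow and 26.1 to 31.3 on the WD.

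**Figure D4:**
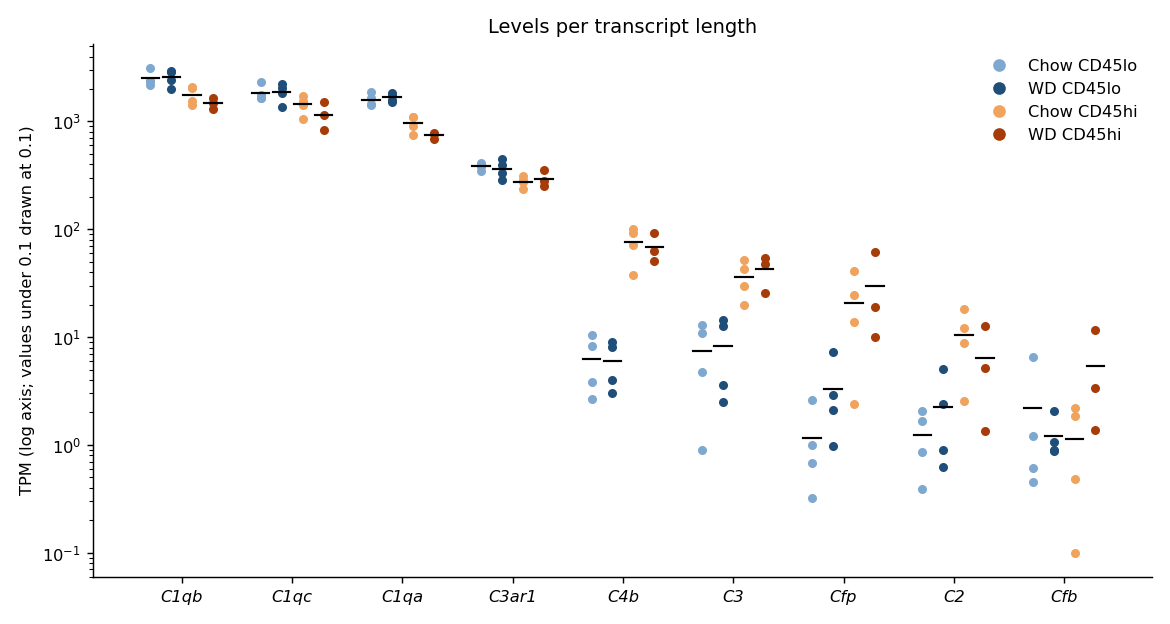
TPM of the 9 genes on a log axis, with 1 dot per library and a bar at the mean of each group, and values under 0.1 drawn at 0.1. The C1q chains and C3ar1 stood at 238 TPM or more in every library, whereas C4b, C3, Cfp and C2 reached at most 101 TPM.

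The scale matters for the abundant genes. Between the gates, the median log2 ratio of 7324 genes at 10 cpm or more was -0.37 on Chow in TPM, against 0.03 in normalized counts. On the WD it was -0.41 against 0.07, over 7172 genes. In TPM, C1qa had a log2 ratio of -0.73 on Chow and -1.17 on the WD, that is -0.36 and -0.76 relative to those medians. C1qb stood at -0.14 and -0.38 relative to them, C1qc at 0.00 and -0.28, and C3ar1 at -0.10 and 0.11. C4b stood at 3.96 and 3.93, beside 3.76 and 3.41 in normalized counts. Without that correction for the median, every CD45hi library lay below every CD45lo library in TPM for C1qa and C1qb on both diets and for C3ar1 on Chow, as for 17.1% of all genes tested on Chow and 24.9% on the WD.

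To ask whether diet moved these genes, WD was compared with Chow within each gate by edgeR's quasi-likelihood test without a fold threshold. None of the 9 genes was called in CD45hi, where 0.254% of all genes were called (38 genes), and none in CD45lo, where 0% were called (0 genes, with 123 at an unadjusted p under 0.05). At an unadjusted p under 0.05 there was likewise none of the 9 in either gate, beside 2628 of all 14967 genes in CD45hi. DESeq2 and limma-voom also called 0 of the 9. In CD45hi, the log2 change of WD over Chow was -0.31 (95% interval -0.68 to 0.06) for C1qa, -0.28 (-0.92 to 0.37) for C4b, -0.06 (-1.51 to 1.39) for C3 and 0.18 (-0.10 to 0.47) for C3ar1. In CD45lo it was 0.06 (-0.27 to 0.40) for C1qa, 0.03 (-0.37 to 0.42) for C1qb and -0.08 (-0.35 to 0.18) for C3ar1. The data therefore bound a diet effect on the C1q chains and C3ar1 far more tightly than on C2, C3, Cfb and Cfp, whose intervals spanned several fold. Cfp had 1.24 in both gates (-0.40 to 2.88 in CD45hi and -0.37 to 2.84 in CD45lo), and without WD CD45hi replicate 2 its CD45hi value was 0.16. Cfb had the lowest FDR in CD45hi (log2 2.50, FDR = 0.32, edgeR) and was 0.89 without WD CD45hi replicate 3. The interaction of diet and gate called none of the 9 and 0.00668% of all genes (1 gene).

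Of 51 other complement genes listed by role, 26 passed the filter and 17 were at 3 counts or fewer in every library. The 1.5-fold test called 3 of 26 on Chow, all higher in CD45hi, and 3 of 26 on the WD, of which 2 were higher and 1 lower, beside 3.98% and 5.18% of all genes tested. Their median log2 fold change was 0.20 on Chow and 0.14 on the WD, also with the 3 genes that were at 0 throughout WD CD45hi taken as 3 counts there. Called genes were mostly receptors, 3 of 11 on Chow and 2 of 11 on the WD. None of 4 tested fluid-phase inhibitors and none of 4 tested membrane inhibitors was called by this test on either diet. Sets of 4 genes are too small to set beside those shares of all genes.

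Among receptors, Cd93, a surface protein first described as a C1q receptor, was at 234 ± 10.2 cpm in Chow CD45hi (SD, n = 4) against 13.95 ± 5.23 in Chow CD45lo (n = 4). In WD libraries it was at 220 ± 171 cpm (n = 3) against 14.004 ± 8.15 (n = 4), with log2 fold changes of 4.07 and 3.97 (FDR = 1.0e-04 and 1.7e-04, edgeR), the latter 3.11 without WD CD45hi replicate 2. Itgax, the alpha chain of complement receptor 4 (CD11c), was at 77.0 ± 34.8 cpm in CD45hi against 11.1 ± 3.12 in CD45lo on Chow and at 134 ± 60.4 against 13.1 ± 5.56 on the WD (log2 2.80 and 3.35, FDR = 0.00136 and 3.6e-04). C5ar1, the C5a receptor, was at 231 ± 44.8 cpm against 87.7 ± 17.2 on Chow (log2 1.40, FDR = 0.00339) and at 166 ± 39.6 against 86.5 ± 4.49 on the WD (log2 0.94, FDR = 0.15). Itgam, the alpha chain of complement receptor 3 (CD11b) on which the cells were sorted, was at 1778 ± 146 and 1786 ± 299 cpm in CD45hi and 2095 ± 79.9 and 2028 ± 119 in CD45lo. Its partner Itgb2 was at 574 ± 54.2 and 714 ± 96.1 cpm in CD45hi against 467 ± 31.3 and 414 ± 69.1 in CD45lo. Lrp1, Calr, C5ar2 and C1qbp had group means between 9.28 and 1072 cpm and were not called by the 1.5-fold test with all 15 libraries.

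Upstream of C4 and C2, the proteases that C1q activates were scarcely measured. C1ra reached a group mean of 1.89 cpm, C1s1 at most 11.8 counts and C1s2 at most 8.9 counts in a library, and C1rb was at 0 throughout. Of the lectin route, Colec12 was at 28.5 ± 11.0 cpm in Chow CD45hi and 12.3 to 15.4 cpm on average in the other groups, and was not called. Masp1, a protease of that route, was at 0 in all 3 WD CD45hi libraries and at 0.0656 to 11.6 cpm in WD CD45lo. The mean of WD CD45lo, 5.16 cpm, was 18.3 times the 0.282 cpm that 3 counts amount to in WD CD45hi replicate 1. The lowest WD CD45lo library was itself under that level. Masp1 was called lower in WD CD45hi (FDR = 0.0314, edgeR). The call was lost without any 1 of the WD CD45hi libraries or without WD CD45lo replicate 2, 3 or 4 (FDR = 0.0536 to 0.0758). It was also lost with limma-voom (FDR = 0.15), the edgeR 4 method (0.112) and the compared groups alone (0.0793). On Chow it was at 2.51 ± 2.50 cpm in CD45hi and 4.69 ± 2.65 in CD45lo (FDR = 0.967).

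Downstream, Hc, which encodes C5, was at 0 in every library and Cfd (factor D) at 3 counts or fewer. All 6 genes of the terminal complex stayed under 1 cpm in every group mean. Of the inhibitors, Cr1l (Crry), the membrane inhibitor of rodents, was at 123 to 135 cpm in the group means. Cd55, which speeds the decay of the C3-splitting enzymes, was at 22.3 ± 16.6 cpm in Chow CD45hi against 1.45 ± 1.18 in Chow CD45lo (FDR = 0.063) and at 4.56 ± 1.88 against 0.943 ± 0.90 on the WD (FDR = 0.312, edgeR). On Chow, Cd55 was called with DESeq2, limma-voom, the edgeR 4 method and 1.5-fold as a filter, and without Chow CD45hi replicate 2. Clu (clusterin) was at 5.47 to 20.4 cpm in the group means and was not called.

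**Figure D5:**
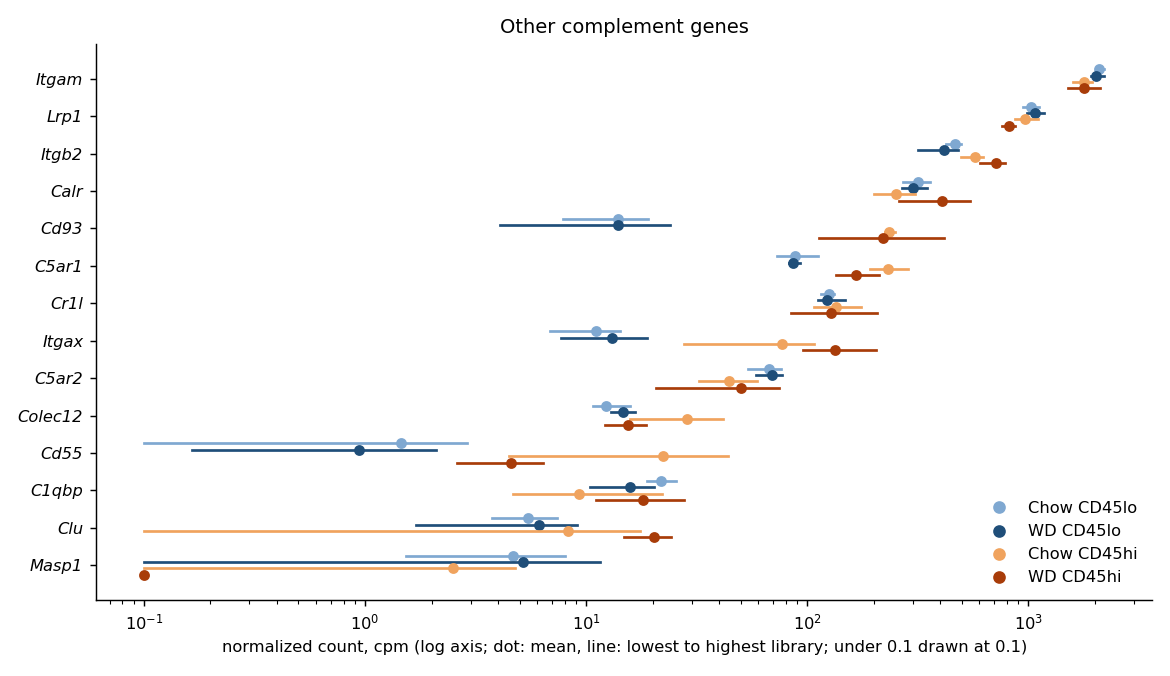
Normalized counts (cpm, log axis) of other complement genes named by the rule (passed the test on either diet or had a group mean of 10 cpm or more), with a dot at the mean and a line from the lowest to the highest library of each group. Cd93, Itgax, C5ar1, Itgb2 and Cd55 stand higher in every CD45hi library than in every CD45lo library on both diets, whereas Cr1l overlaps on both. Colec12 stands so on Chow only and Clu on the WD only. Taking each diet by itself, 8.26% of all genes tested stood so on Chow and 10% on the WD. The share that stood so on both diets was not counted.

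The genes with the most similar profile over the 15 libraries were sought among 8253 genes with a mean of 10 cpm or more, by the root-mean-square difference of centred log2 cpm. For C1qa the nearest were Hps4 and Itm2c (0.16 and 0.17 log2 units). C1qb was 0.20 and C1qc 0.31 away from C1qa. C3ar1 was nearest to Cltc, Mpeg1 and Dbf4 (0.12, 0.13 and 0.13). The nearest to C3 were Mki67, Ifit1 and Gsr at 0.66, 0.75 and 0.78, with C4b at 1.25 and Cfp at 1.44 away. This distance grows with the spread of a gene over the libraries. The distances of C3, which varied widely, therefore cannot be set beside those of C1qa and C3ar1.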

How the data were processed

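The authors trimmed 75 bp paired-end reads (NGS QC Toolkit, Phred under 30 removed) and quantified them with RSEM 1.2.12 (Bowtie2) against mm10, and deposited per library an expected count and a TPM for each gene. Libraries were poly(A)-selected with a kit that does not mark strand. The study describes the deposit as holding data per animal. The labels name no animal for a library and no source used here gives its sequencing platform, so part of the spread behind the p-values may be technical. No library shared identical values with another of its group.

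Expected counts were rounded, filtered, TMM-normalized and fitted with all 15 libraries and 4 groups in edgeR 4.0.16. CD45hi was compared with CD45lo by glmTreat at 1.5-fold, and diets and the interaction by glmQLFTest. The SE is the fold change over the root of F, and that of the interaction joins both SEs. The script was tested on simulated data. TPM was used without a test. Genes other than the 9 were named if they passed the test or reached 10 cpm in a group mean (complement list), if they were the 3 nearest profiles of C1qa, C3 and C3ar1, or if they share reads with one of the 9, and some genes that this rule names are not reported here. The 9 genes and the lists were chosen with earlier results of these data known. Alternatives used DESeq2 1.42.0, limma 3.58.1, other scalings and filters, replicate blocks and each library left out. The alternatives for single complement genes, single-gene diet values and TPM in place of cpm were chosen after seeing the data.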

Additional observations from a re-analysis of the deposited data

Results flagged for a closer look

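Of 27 combinations of gene and group with 4 libraries, 1 held a library far from the others. C1qc was at 1333 cpm in Chow CD45lo replicate 2 and at 892 to 931 cpm in the other 3 libraries of that group. The same library was also the highest of its group in C1qa (893 cpm) and C1qb (1578 cpm), so the combinations are not independent. By chance about 1 in 20 such groups would hold a library that far from the others.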

How the results depend on the processing

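On each diet, between 2 and 4 of the 9 genes were called under 11 other settings, and between 2 and 4 on Chow and 2 and 3 on the WD without single libraries. C4b was called in all of them. Calls of C1qa, C2, C3, Cd55, Masp1 and, less often, Cfp changed as given with their values. C1qbp was called on Chow without Chow CD45hi replicate 1. With the 1.5-fold change as a filter in place of a test, C2, C3, C4b and Cfp were called on Chow. On the WD this filter called C1qa, C3, C4b and Cfp, and 5 other complement genes instead of 3, with C5ar1 and Itgb2 added. The filter is not among the alternatives counted above for single genes. Diet and interaction calls among the 9 genes stayed at 0 in every setting run.

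None of the values that changed sign passed the test, and the cause of the changes was not tested. Between the gates they were C1qc on Chow with total counts alone (-0.14), C3ar1 on Chow with DESeq2 or its size factors (0.014), C3ar1 on the WD with total counts alone (-0.072) and Cfb on Chow with Gm20547 added (2.11). Without single libraries C1qb on Chow ran from -0.17 to 0.088, C3ar1 on Chow from -0.065 to 0.018, Cfb on Chow from -1.10 to 0.15 and C1qc on the WD from -0.41 to 0.043. For WD over Chow in CD45hi, C3 was 0.12 with the replicate block and -0.82 to 0.27 without single libraries. In CD45lo, C1qc was -0.0017 with limma-voom and -0.0077 with a filter of 1 count in 1 library, and C3 was 0.055 with limma-voom. Without single libraries, CD45lo values ran from -0.070 to 0.17 for C1qb, -0.12 to 0.17 for C1qc, -0.35 to 1.09 for C2, -0.10 to 0.27 for C4b, -0.78 to 0.34 for C3 and -1.06 to 0.20 for Cfb.

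Replicate numbers of the titles and of the file names differ on the WD, and neither showed pairing: deviations of same-numbered libraries correlated between -0.02 and 0.07. With the replicate block, C3 on Chow was called (3.06 by titles, 3.07 by file names), C3 on the WD was lost by titles (2.46), Cfp on the WD by file names (3.52), and Masp1 by both. The block lowered the calls over all genes from 595 to 417 or 412 on Chow and from 775 to 398 or 353 on the WD. File-name numbers were not used for the diet comparisons.

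Over all genes, the calls between the gates were 1162 and 1335 with the fold change as a filter, against 595 and 775. Total counts alone shifted the median over all genes, on the log2 scale, to -0.20 on Chow and -0.31 on the WD and split the WD calls into 411 higher and 340 lower, against 600 and 175. Diet in CD45hi gave 38 calls over all genes, 1030 with DESeq2, 252 with the edgeR 4 method, 69 and 60 with a stricter filter and total counts alone, and 2, 1 and 0 with the block, with the 1.5-fold threshold and with the compared groups alone. Cfb had the fewest counts of the 9 genes, 0 to 131 per library.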
